A study of Solanum lycopersicum with 8 samples.

Results

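Isolated accessible regions of the young tomato leaf are described here: sites of open chromatin that stand alone, with no other called site nearby on either side. They were picked from the authors' list of leaf peaks by spacing only. A peak on chromosomes 1 to 12 was taken when the gap to the previous peak and the gap to the next peak were both 20 kb or more, and the first and last peak of each chromosome, 24 in all, were left out. The rule found 1600 peaks, or 2.31% of the 69143 peaks on chromosomes, in a list of 69690 peaks that includes 547 on unplaced sequence. The remaining 67543 chromosomal peaks, those 24 included, are the set they are compared with. Because peak positions chose these regions, their density, placement and spacing are given as a description with no test. Tests were run only on width, score and q. The rule set no limit on any of them. Width and gaps come from the same starts and ends, however, so width is not fully separate from the rule.

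The material was the terminal leaflet of young leaves of Solanum lycopersicum M82, a cultivated tomato, in 6 samples of 1 g, with 100000 nuclei in each transposase reaction. ATAC-seq marks open chromatin as places where a transposase could insert sequencing adapters. The genotype label of all 6 leaf samples is M82, although the growth text for ATAC-seq speaks of anantha mutants in M82. There is no second leaf condition, and the Hi-C libraries of the series, 2 from anantha inflorescences, are not used in what follows.

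The 6 samples came as 1 combined list, so the value of a region in each sample, the spread between samples and the read depth are not known. Each ± below is a spread over chromosomes of that list, and a 95% interval of a share (Wilson method) covers counting error only. For each peak the list gives a start and an end on the SL4.0 assembly, a whole-number score with a ceiling of 1000, and a −log10 q, where q is the authors' false discovery measure. A higher −log10 q means a stronger call. A higher score does too, but the score also depends on width and so is not a measure of strength alone. Neither a genome nor a gene annotation of SL4.0 was used here, so no sequence is printed and no gene is placed beside a region.

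In plants, accessible regions usually mark promoters just upstream of genes, and others lie farther off and can act as enhancers or other distal regulatory elements. Tomato chromosomes have gene-rich distal arms around large pericentromeric blocks of heterochromatin, which are rich in retrotransposons and poor in genes. Whether a given site listed here is near a gene or in a repeat was not examined.

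Isolated regions lay mostly in the chromosome interior, whereas other peaks lay mostly towards the ends. The interior is the middle 60% of the extent of a chromosome, the extent being the position of its last peak, and the ends are the first and last 20%. The interior held 1181 isolated regions, or 73.8% of them, against 14230 other peaks, or 21.1%. The rule takes peaks where peaks are sparse, and they are sparser in the interior, so this contrast is in part set by the rule. Over all chromosomal peaks the share was 22.3%. The share was higher for isolated regions than for other peaks on 12 of 12 chromosomes, with a mean of 73.4 ± 6.63% for isolated regions and 19.8 ± 10.8% for other peaks (SD, n = 12 chromosomes). In density this was 2.55 isolated regions per Mb of interior and 1.36 per Mb of the ends. Isolated regions made up 7.66% of interior peaks and 0.780% of end peaks.

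**Figure D1:**
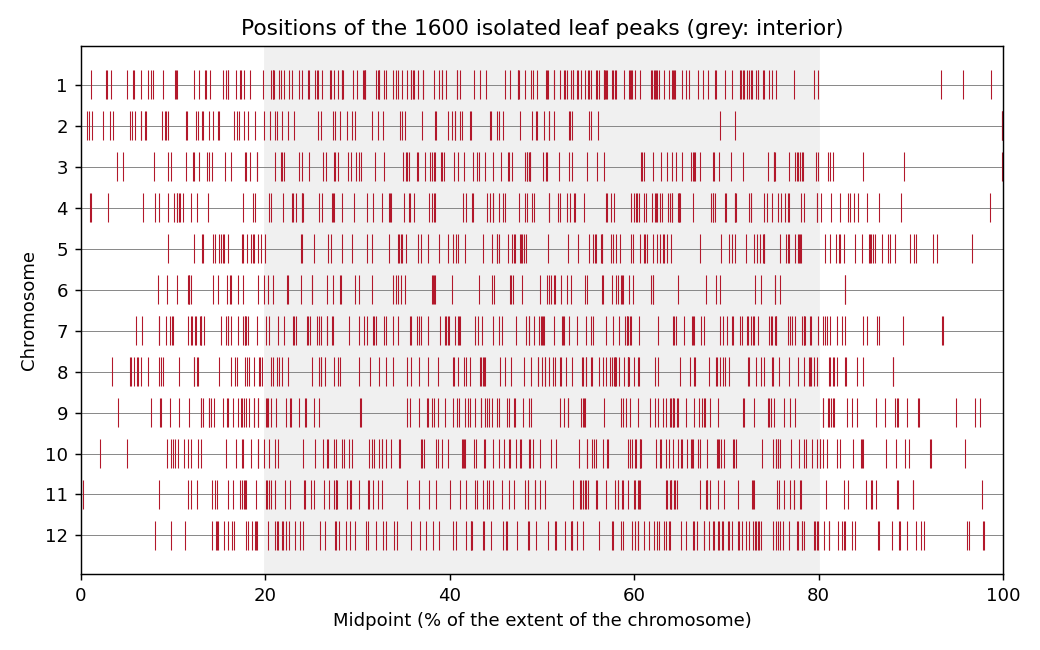
Each red line is 1 of the 1600 isolated regions, placed at its midpoint as a percentage of the extent of its chromosome (horizontal axis), with the 12 chromosomes down the page and the interior shaded grey. Isolated regions are mostly in the shaded interior, and the last 20% of the extent has few, with 2 each on chromosomes 2 and 6; on chromosome 2 most of those in the interior lie left of 60%.

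Isolated regions were similar in number over most of the extent. With each extent divided into 10 equal parts and the chromosomes pooled, parts 2 to 8 held between 175 and 218 isolated regions each. Over the same parts the other peaks numbered from 1181 in part 3 to 6159 in part 8. Parts 1, 9 and 10 held fewer isolated regions, with 76, 112 and 32, against 14521, 12478 and 23326 other peaks. As a share of the peaks of a part, isolated regions reached 14.7% in part 6 and 13.7% in part 3, and came to 0.137% in part 10.

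**Figure D2:**
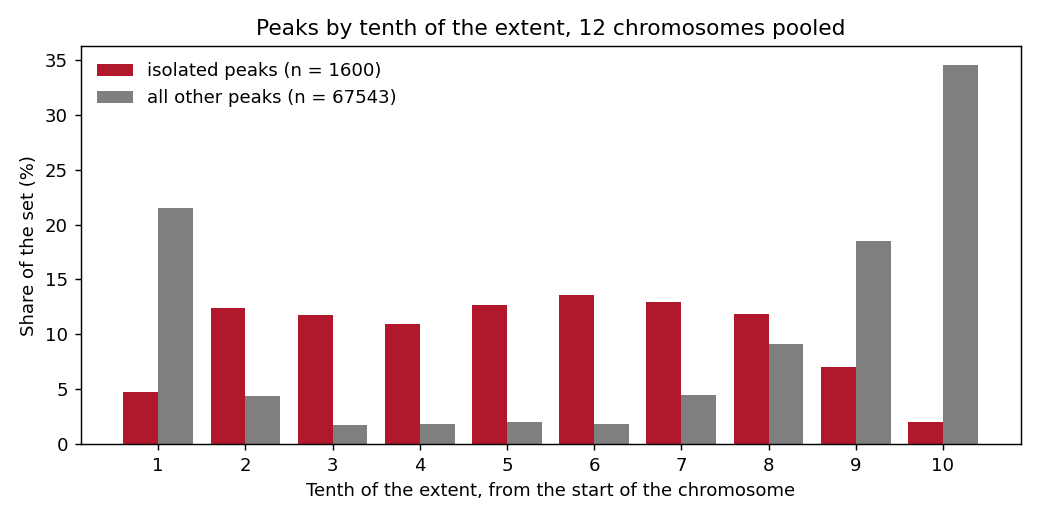
Bars show the share of each set (vertical axis, %) in each of 10 equal parts of the extent (horizontal axis), with isolated regions in red at left and all other peaks in grey at right. Isolated regions keep shares of 10.9 to 13.6% in parts 2 to 8, whereas 34.5% of other peaks fall in part 10.

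Chromosomes carried similar densities of isolated regions. There were 2.06 ± 0.243 per Mb (SD, n = 12 chromosomes), from 1.65 per Mb on chromosome 2 to 2.37 on chromosome 7. In number they ranged from 82 on chromosome 6 to 181 on chromosome 1, the longest. As a share of the peaks of a chromosome they were lowest on chromosome 2, at 1.16% of 7559 peaks, and highest on chromosome 12, at 3.47% of 4500 peaks.

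The chromosome ends were not alike. The first 20% held 275 isolated regions in all and the last 20% held 144, against 17509 and 35804 other peaks. Chromosome 2, whose short arm carries the ribosomal DNA array, stood out at its start: of its 145 peaks in the first 20%, 34 were isolated, and its interior held 59.1% of its isolated regions, the lowest share of any chromosome. The last 20% held 2 isolated regions on chromosomes 2 and 6 and 3 on chromosome 1. The order was turned on 2 chromosomes: chromosome 5 had 23 in the last and 20 in the first, and chromosome 12 had 22 and 17.

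The gaps around isolated regions were usually far above the limit of 20 kb. The smaller of the gaps on either side had a median of 45.8 kb, with quartiles of 29.1 and 91.5 kb, and the larger had a median of 136 kb, with quartiles of 65.6 and 281 kb. In other peaks the smaller gap had a median of 286 bp. The smaller gap was at least 50 kb for 753 isolated regions, at least 100 kb for 360, at least 200 kb for 112 and at least 500 kb for 8. The larger gap was a median of 2.12 times the smaller, and it was under 2 times the smaller for 755 of them (47.2%).

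Gaps of 20 kb or more were few but took up most of the extent. There were 5274 of them, 7.63% of the gaps between neighbouring peaks, and they spanned 568 Mb, or 73.5% of the summed extent of 773 Mb. Assembly gaps and repeats were not looked at. An isolated region bordered 2586 of these wide gaps (49.0%), and 614 had one on both sides. A further 7348 peaks had a wide gap on 1 side only, as at the edge of a group.

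Many isolated regions had another isolated region as a neighbour, which the rule itself favours. The neighbour of an isolated region already has 1 gap of 20 kb or more. Among peaks with such a gap, 7348 had it on 1 side only and 1600 were isolated. An isolated peak has such a gap on both sides and so can be a neighbour across either. These counts therefore do not give the share of isolated neighbours that the rule alone would yield. Adjacency is therefore a description and was not tested. A total of 608 (38.0%) had no isolated neighbour, 756 (47.3%) had 1, and 236 (14.8%) had isolated regions as both neighbours. They formed 986 runs of consecutive isolated regions, of which 20 had 5 or more members. The longest held 9, on chromosomes 1 and 7. When the neighbour was not itself isolated, 979 of 1972 such neighbours, counted per side (49.6%), had another peak within 1 kb. That share was lower than among all 69143 chromosomal peaks. Of those, 22593 had another peak closer than 100 bp and a further 28666 had one from 100 bp to 1 kb away. The rule leaves a neighbour of an isolated region only 1 side on which a peak can be that close. The lower share is therefore in part set by the rule.

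The run on chromosome 1, between 27830895 and 29857314 (SL4.0), shows how unlike the members of one stretch can be. Its widths ran from 378 bp to 1089 bp. The strongest member, at 29330160 to 29331197, had a score of 1000 and a −log10 q of 8.77. Its neighbour at 29304143 to 29304599 had a score of 861 and a −log10 q of 1.93. In the run on chromosome 7, between 24778555 and 27068648, 3 of the 9 members were at the ceiling and 4 had scores of 342 to 426. These runs were chosen after their values were seen.

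The surroundings of isolated regions were sparse but seldom empty. With the chromosomes cut into fixed windows of 1 Mb, the window that held an isolated region held a median of 23 peaks, with quartiles of 12 and 42, against 268 for other peaks. Of 773 windows with a peak, 593 held an isolated region. In 27 windows every peak was isolated, and in 9 of these a single isolated region was the only peak. The most in one window was 8 of its 17 peaks, at 37 to 38 Mb of chromosome 8.

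The 5 most isolated regions by their smaller gap all lay in the interior and differed widely in strength. The first, at 19027309 to 19028648 on chromosome 6, had no neighbour within 675 kb, and its score was 1000 with a −log10 q of 8.42. The second, at 47842304 to 47843110 on chromosome 10, was 623 kb from its nearer neighbour and had a score of 497 and a −log10 q of 2.61. The third, at 34991682 to 34992552 on chromosome 10, was 556 kb from one neighbour and 1043 kb from the other, with a score of 262 and a −log10 q of 1.11. These 3 sites thus ranged from a call at the ceiling to one with q above 0.05.

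The fourth, at 25584893 to 25585911 on chromosome 7, was 556 kb from its nearer neighbour and had a score of 1000 and a −log10 q of 5.39. The fifth, at 35872662 to 35873492 on chromosome 3, was 546 kb from its nearer neighbour and had a score of 311 and a −log10 q of 1.499. The third and the fifth were the only peaks in their 1 Mb windows. Widths of the 5 were similar, from 807 to 1340 bp, and each was above the upper quartile of isolated regions, 771 bp.

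Isolated regions were narrower than other peaks. Their median width was 574 bp, with quartiles of 401 and 771 bp, against 669 bp for other peaks, with quartiles of 459 and 1030 bp. Per chromosome the medians averaged 578 ± 37.6 bp for isolated regions and 667 ± 11.7 bp for other peaks (SD, n = 12 chromosomes). The mean log2 ratio of medians was −0.21 ± 0.09, a ratio of 0.864, and isolated regions had the lower median on 12 of 12 chromosomes (exact two-sided sign-flip permutation p = 0.000488, the lowest that 12 chromosomes allow; 0.00171 after Benjamini-Hochberg adjustment over the 7 tests run). The 12 chromosomes come from a single list and replicate nothing biologically, so each p here says only how uniform a difference was from chromosome to chromosome.

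Wide peaks were scarce among isolated regions. A width of at least 1000 bp was found in 183 isolated regions (11.4%) and in 26.3% of other peaks. A width of at least 2000 bp was found in 23 isolated regions (1.44%) and in 6.91% of other peaks. Together the isolated regions covered 1.05 Mb, against 61.2 Mb for other peaks.

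The narrower width was also seen among interior peaks and against other peaks of windows that held an isolated region. Among interior peaks the median was 593 bp for isolated regions and 650 bp for others, with a mean log2 ratio of −0.14 ± 0.09 (SD, n = 12 chromosomes; exact sign-flip permutation p = 0.000977, adjusted 0.00228). Isolated regions had the lower median on 11 of 12 chromosomes, and chromosome 10 was the exception. Against other peaks of the 1 Mb windows that held an isolated region, with a median of 649 bp, the mean log2 ratio was −0.17 ± 0.10 (exact sign-flip permutation p = 0.000488, adjusted 0.00171; lower on 12 of 12). Neither comparison held local density equal. In the interior the median number of peaks in the 1 Mb window was 18 for isolated regions and 74 for other peaks. For the windows with an isolated region it was 23 and 118, and 35.0% of those other peaks were in the interior, against 73.8% of isolated regions. At the chromosome ends the median widths were 528 bp for 419 isolated regions and 674 bp for other peaks.

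Narrowness was shared with peaks whose neighbours were nearer than 20 kb. By distance to the nearer neighbour, the median width was 739 bp for peaks closer than 100 bp to another, 676 bp from 100 bp to 1 kb, and 599 bp from 1 to 5 kb. It was 561 bp from 5 to 10 kb, 562 bp from 10 to 20 kb, and 545 bp for isolated regions from 20 to 50 kb. It was 594 bp from 50 to 100 kb and 601 bp at 100 kb or more. The medians were thus lower in each class above 1 kb than in those below it, and the classes on either side of the 20 kb limit differed by 17 bp. The classes were not tested against each other.

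Low scores were more frequent among isolated regions than among other peaks. A score is the authors' value per peak, and times width it gives an area: over the 39170 peaks of the list below the ceiling, score times width over 1000 was never under 200 after rounding. A narrow peak therefore cannot have a low score. Among peaks with scores under 500 the smallest width was 409 bp for isolated regions and 401 bp for other peaks. Isolated regions were narrower, so shares by score, the ceiling share included, mix width with strength. Scores under 500 were found in 426 isolated regions, or 26.6% (95% interval 24.5 to 28.8%), against 15.3% of other peaks (15.0 to 15.6%), with 15.6% over all chromosomal peaks. The share was higher for isolated regions on 12 of 12 chromosomes, by a mean of 11.2 ± 4.89 percentage points. In the interior it was 30.3% for isolated regions and 17.3% for other peaks, and at the ends 16.2% and 14.8%. Near the limit it was 19.1% for peaks with a smaller gap of 15 to 20 kb. It was 15.8% for isolated regions at 20 to 25 kb and 34.1% for those at 50 kb or more. The middle of the range was thinner, with 8.44% of isolated regions and 10.5% of other peaks in the class from 500 to below 600, and 6.75% of isolated regions and 9.64% of other peaks in the class from 600 to below 700. The limit of 500 was chosen after the values were seen, so no test is given.

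**Figure D3:**
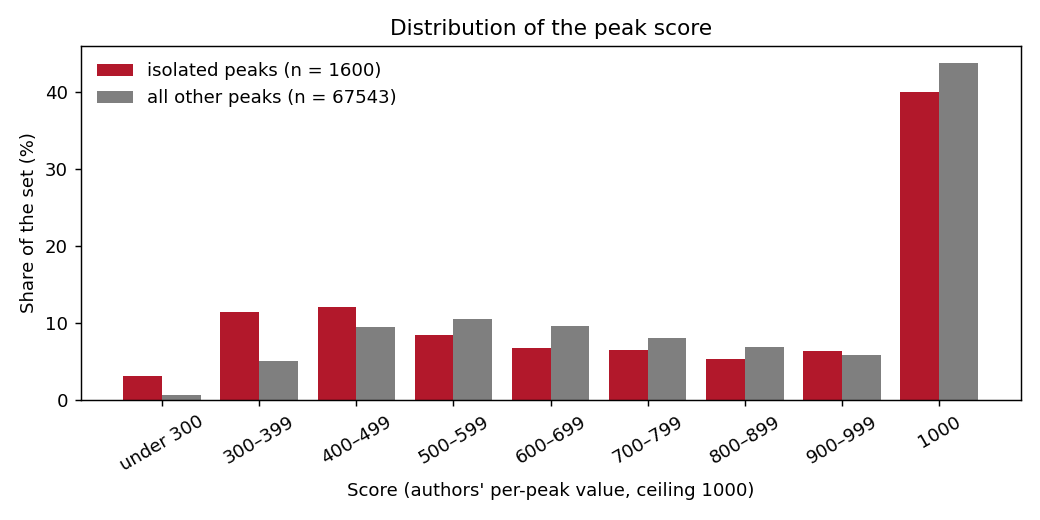
Bars show the share of each set (vertical axis, %) by score (horizontal axis, the authors' per-peak value), with isolated regions in red at left and all other peaks in grey at right. Scores under 300 are found in 3.13% of isolated regions and 0.721% of other peaks, and 40.0% and 43.8% stand at the ceiling of 1000.

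The ceiling was reached slightly less often by isolated regions. A score of 1000 was listed for 640 of them, or 40.0% (95% interval 37.6 to 42.4%), against 43.8% of other peaks (43.4 to 44.2%) and 43.7% of all chromosomal peaks. It was listed for 45.5% of the 847 isolated regions with a smaller gap of 20 to 50 kb. For the 753 at 50 kb or more the share was 33.9%, and neither class was tested. The mean difference over chromosomes was −3.73 ± 5.31 percentage points, and isolated regions had the lower share on 10 of the 12 (exact sign-flip permutation p = 0.0229, adjusted 0.0296). Within the interior the shares were 37.6% for isolated regions and 42.7% for other peaks, a mean difference of −3.48 ± 6.16 points that did not pass the threshold (exact sign-flip permutation p = 0.0713, also after adjustment). At the ends the direction was the other way, with 46.8% of isolated regions and 44.1% of other peaks at the ceiling; that difference was not tested. The call over all peaks was lost under 2 alternatives: among peaks with q of 0.05 or less the difference was −2.38 points (exact sign-flip permutation p = 0.129), and with a limit of 10 kb it was −1.24 points (p = 0.205 by the same exact test).

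Below the ceiling, isolated regions lay closer to the lower limit on the area. Of 960 isolated regions below 1000, 342 (35.6%) had an area under 250, against 22.7% of other peaks below the ceiling and 23.0% of all. Their median area was 281, against 350 for other peaks. Below the ceiling the area of a peak is always less than its width in bp. Isolated regions were narrower, so this contrast also mixes width with strength. Peaks just outside the definition had similar values, with 33.0% under 250 and a median area of 290 for those with a smaller gap of 15 to 20 kb.

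Taken as a set, isolated regions also had weaker q values over all peaks and within the interior. The median −log10 q was 2.34 for isolated regions and 2.58 for other peaks. At smaller gaps of 20 to 50 kb, 847 isolated regions had a median of 2.58, the same as other peaks to this rounding. At 50 kb or more, 753 had 2.03. Neither class was tested. Medians per chromosome averaged 2.34 ± 0.237 for isolated regions and 2.57 ± 0.0398 for other peaks, and the mean difference was −0.23 ± 0.25 (SD, n = 12 chromosomes; exact sign-flip permutation p = 0.00195, adjusted 0.00342). Isolated regions had the lower median on 11 of 12 chromosomes, the exception being chromosome 5, with 2.68 for isolated regions and 2.57 for other peaks. The lowest median of isolated regions was that of chromosome 7, at 1.83, against 2.65 for its other peaks. Within the interior the medians were 2.21 for isolated regions and 2.48 for other peaks. The mean difference there was −0.18 ± 0.25, and isolated regions were lower on 8 of the 12 (exact sign-flip permutation p = 0.0254, adjusted 0.0296). It was −0.15 (exact sign-flip permutation p = 0.0938) among peaks with q of 0.05 or less and −0.08 (p = 0.275 by the same exact test) with a limit of 10 kb. At the ends the medians were 2.62 for isolated regions and 2.60 for other peaks, with no test. Leaving out chromosome 6, 7, 8 or 11 from the interior comparison gave −0.16, −0.13, −0.17 and −0.17, each with an exact sign-flip permutation p of 0.0508. With the limit at 10 kb the difference over all peaks was −0.12 (exact sign-flip permutation p = 0.0171).

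The direction in q also varied with width. The isolated regions had the lower median −log10 q in the class from 500 to below 700 bp, with 1.84 against 2.12 for other peaks, and in the class from 700 to below 1000 bp, with 1.82 against 2.50. They had the higher median in the other 4 width classes, among them 2.51 against 2.45 below 400 bp and 3.92 against 3.64 from 1000 to below 2000 bp. At 2000 bp or more the medians were 8.02 for 23 isolated regions and 6.06 for other peaks. These classes were not tested.

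**Figure D4:**
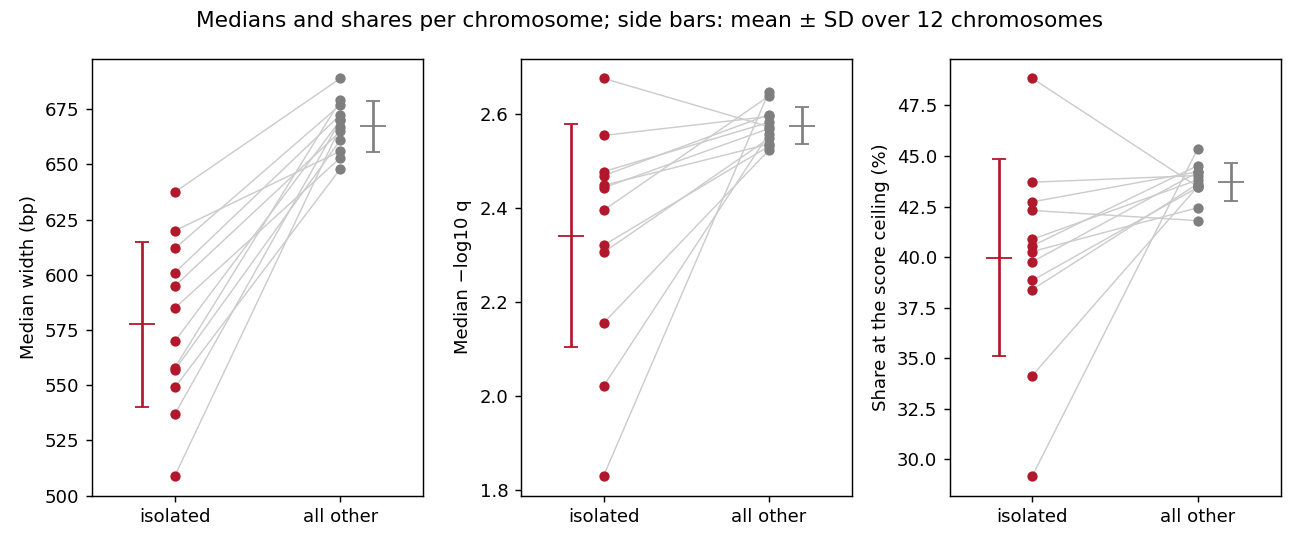
Points are chromosomes, joined by lines, with isolated regions in red at left and all other peaks in grey at right; panels show median width (bp), median −log10 q and the share at the score ceiling (%). Side bars give the mean ± SD over 12 chromosomes, and the vertical axes do not start at 0. Median widths run from 509 to 638 bp for isolated regions and from 648 to 689 bp for other peaks, without overlap.

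The list holds calls with q above 0.05, and these made up a larger share of isolated regions. A q above 0.05 was listed for 138 isolated regions, or 8.63% (95% interval 7.35 to 10.1%), against 2.90% of other peaks (2.78 to 3.03%) and 3.03% of all chromosomal peaks. The share was higher for isolated regions on 12 of 12 chromosomes, by a mean of 5.73 ± 2.98 percentage points. It ranged from 3.70% on chromosome 4 to 13.04% on chromosome 7 for isolated regions, and from 2.47 to 3.28% for other peaks. This share was chosen after the values were seen and was not tested.

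The weak calls among isolated regions had widths and scores close to those among other peaks. Isolated regions with q above 0.05 had a median width of 700 bp and a median score of 345, and other peaks with q above 0.05 had 687 bp and 354. In position, 120 of the 138 (87.0%) were in the interior, against 27.8% of the 1958 among other peaks. Their smaller gap had a median of 70.7 kb, against 44.0 kb for the remaining isolated regions. By width, weak calls made up 17.4% of isolated regions and 5.50% of other peaks in the class from 700 to below 1000 bp, and 13.2% of isolated regions and 5.55% of other peaks from 500 to below 700 bp.

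Among the isolated regions themselves, calls were weaker where the gaps were larger. In the interior, the share at the ceiling was 43.0% for smaller gaps of 20 to 50 kb, 37.6% from 50 to 100 kb and 27.6% at 100 kb or more. The share with q above 0.05 was 7.65%, 10.4% and 14.6% over the same classes, and the median −log10 q was 2.44, 2.29 and 1.80. Interior peaks with a smaller gap of 10 to 20 kb, just outside the definition, had 43.0% at the ceiling and 8.12% with q above 0.05. At the ends, isolated regions with smaller gaps of 20 to 50 kb had 50.7% at the ceiling and 3 of 272 with q above 0.05. These classes were described and not tested against each other. With the limit on the gap set at 50 kb, the difference from all other peaks was −9.92 percentage points in the ceiling share (exact sign-flip permutation p = 0.00146) and −0.53 in median −log10 q (exact sign-flip permutation p = 0.000488, again the lowest allowed).

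**Figure D5:**
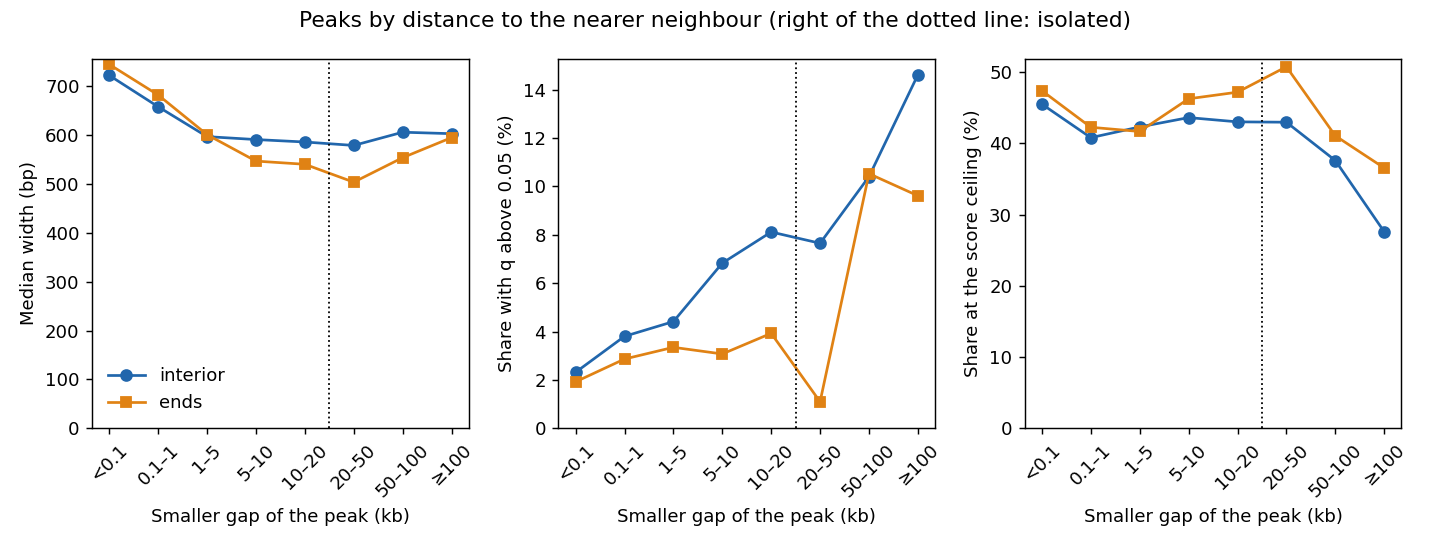
Lines show peaks of the interior (blue circles) and of the ends (orange squares) by their smaller gap (horizontal axis, kb, 8 classes), with isolated regions right of the dotted line; panels show median width (bp), the share with q above 0.05 (%) and the share at the score ceiling (%). In the interior the share with q above 0.05 is 2.32% below 100 bp and 14.6% at 100 kb or more.

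Some isolated regions were as wide and strong as peaks of dense stretches. The widest was 9002 bp, at 38788466 to 38797467 on chromosome 4, with a score of 1000 and a −log10 q of 11.97. The next, of 6687 bp at 11299196 to 11305882 on chromosome 9, had the highest −log10 q of any isolated region, 13.5. The highest of any other chromosomal peak was 17.4. A region of 6184 bp at 17500583 to 17506766 on chromosome 2 had a −log10 q of 12.5 and lay 547 kb from its farther neighbour.

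Width and strength did not always go together. The region at 17670564 to 17676647 on chromosome 12 was 6084 bp wide and had a −log10 q of 3.61, the lowest of the 5 widest, and that at 20242303 to 20248561 on chromosome 5 was 6259 bp wide and had 8.51. The region at 11512757 to 11513524 on chromosome 5 was 768 bp wide and had a −log10 q of 11.7, the fourth highest. The fifth, at 43964885 to 43966888 on chromosome 10, was 2004 bp wide, had a −log10 q of 11.3 and had no other peak within 152 kb. Each of these 7 regions was at the score ceiling.

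The weakest and the narrowest members, chosen after their values were seen, were of another kind. The lowest −log10 q was 0.88, with a score of 215 over 996 bp, at 47048100 to 47049095 on chromosome 7. The narrowest was 134 bp at 53349880 to 53350013 on chromosome 2, at 99.8% of the extent of that chromosome, with a score of 1000 and a −log10 q of 2.55.

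The few peaks named on either side of the 20 kb limit had scores at or near the ceiling, and those inside it were narrower than those outside. Just inside it lay a region of 339 bp at 52433145 to 52433483 on chromosome 8, with a smaller gap of 20010 bp, and regions of 390 bp on chromosome 8 and 205 bp on chromosome 10, with 20015 and 20045 bp. Just outside lay a peak of 483 bp at 28379957 to 28380439 on chromosome 3, with a smaller gap of 19990 bp, and peaks of 540 bp on chromosome 7 and 979 bp on chromosome 12, with 19888 and 19830 bp. Of these 6 peaks, 5 were at the ceiling, and the sixth, on chromosome 3, had a score of 945. More broadly, 247 isolated regions with a smaller gap of 20 to 25 kb had a median width of 535 bp and a median −log10 q of 2.62, against 573 bp and 2.64 for 409 peaks at 15 to 20 kb. The quartiles of width overlapped, at 373.5 and 732 bp for the isolated regions and 412 and 785 bp for the peaks outside.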

How the data were processed

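The submitters' processing notes name Genrich 0.6, which the name of the deposited leaf list gives as its peak caller, and BWA, SAMtools, Picard, Trimmomatic and bedtools. No settings are stated in the sources at hand. The score and the −log10 q of each peak are used as the authors deposited them, the −log10 q being read from the peak's name. Starts were read as BED starts and are printed 1-based; width is end minus start.

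Members, classes and tests were chosen with earlier results of these data known. Regions are named by rule: the 5 with the largest smaller gap, the 5 widest, the 5 of highest −log10 q, and 3 on each side of the 20 kb limit; others are marked as chosen after their values were seen.

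Per chromosome, the log2 ratio of median widths, the difference of median −log10 q or the difference in ceiling share was computed as isolated regions against other peaks. Its mean over 12 chromosomes was tested by an exact two-sided sign-flip permutation over all 4096 sign patterns, with Benjamini-Hochberg adjustment over 7 tests (Python 3.11.15, numpy 2.4.6, pandas 2.3.3, scipy 1.17.1). The calculation was tested on simulated data. Alternatives changed the gap limit to 10 or 50 kb, merged peaks within 150 bp, kept only peaks with q of 0.05 or less, of at least the median score or of at least 500 bp, moved the ends to 10 or 25%, widened windows to 5 Mb, and left out each chromosome. The loop list, whose assembly is not named, was not used here.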

Additional observations from a re-analysis of the deposited data

How the results depend on the processing

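The number of isolated regions, 1600, was 2815 with a limit of 10 kb and 753 with 50 kb, and between 1571 and 1780 under the other alternatives. Their interior share, 73.8%, was 62.5% with 10 kb, 80.5% with 50 kb, 64.1% among peaks of at least the median score, 93.3% with ends of 10% and 61.7% with ends of 25%. The 3 width differences kept their direction and passed the threshold under each alternative run, but their size moved: over all peaks the log2 ratio, −0.21, was −0.33 with close peaks merged, in the interior −0.14 was −0.09 with 50 kb, and within windows −0.17 was −0.11 with 50 kb. Leaving out 1 chromosome gave log2 ratios of −0.22 to −0.19 over all peaks, −0.16 to −0.13 in the interior and −0.19 to −0.16 within windows. The ceiling share lost its call with 10 kb (−1.24 points) and among peaks with q of 0.05 or less (−2.38 points), and was −4.56 to −2.60 points with 1 chromosome left out. Its interior difference passed the threshold with 50 kb (−9.20 points), with ends of 10% (−3.66 points) and without chromosome 5 or 12, within a range of −4.44 to −2.30. The −log10 q difference, −0.23, was −0.12 with 10 kb and −0.53 with 50 kb, and was −0.26 to −0.18 with 1 chromosome left out; in the interior, where it was −0.44 with 50 kb, it lost its call with 10 kb (−0.0840), with q of 0.05 or less (−0.152) and without chromosome 6, 7, 8 or 11, within −0.21 to −0.13. The cause was not tested. No paired analysis was possible because the list carries no values per sample, and leaving out a sample was not possible for the same reason. Depth is unknown, so a stretch listed without a peak gives no limit on accessibility there.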

Other observations

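On unplaced sequence, which the comparisons leave out, 10 of 547 peaks (1.83%) had gaps of 20 kb or more on both sides.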
